A study of Mus musculus with 36 samples.

Results

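The arginine metabolism genes described here are Nos2, Arg1, Arg2, Ass1, Asl, Slc7a1, Slc7a2, Odc1 and Gch1, taken by name from both count tables of the study. All 9 were present among the 49568 gene names of each table. RAW264.7 cells, an established line of mouse macrophages, were cultured for 72 h and their RNA was sequenced in 36 libraries. The IFNγ table held 3 groups of 6 libraries labelled PBS, 65–79*SE with IFNγ and 65–79*PE with IFNγ, and the Il-4 table held PBS, 65–79*SE with Il-4 and 65–79*PE with Il-4. Both peptides are 15-residue stretches (residues 65–79) of human HLA-DRβ chains. 65–79*SE holds the shared epitope, whose alleles raise the risk of rheumatoid arthritis, while 65–79*PE holds a protective epitope. Peptides were used at 100 µg/ml and cytokines at 5 ng/ml. The labels do not settle whether the PBS cells received cytokine. In these libraries PBS carried the response to neither, so a comparison against PBS holds cytokine and peptide together. All groups are a single cell line, with no genetic change between them.

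Replicates 1–3 and replicates 4–6 of every group were named by different schemes in the labels and are shown apart. Library totals ran from 27987849 to 33833725 counts (IFNγ, replicates 1–3), 20666573 to 63155889 (IFNγ, replicates 4–6), 23307445 to 26611935 (Il-4, replicates 1–3) and 17049921 to 30639021 (Il-4, replicates 4–6). The 8 macrophage markers Adgre1, Csf1r, Cd68, Itgam, Lyz2, Ptprc, Spi1 and Fcgr1 had at least 10 counts in every library. Markers of T cells, B cells, epithelium and hepatocytes each summed to at most 0.338 CPM (counts per 1000000 counts of the scaled library) in any library and those of fibroblasts to at most 1.42 CPM. The 3 libraries labelled 65–79*SE with IFNγ, replicates 4–6, went against their label. Gbp2, an IFNγ-induced GTPase, was at 0.713 ± 0.0573 CPM (SD, n = 3) there, 0.676 ± 0.15 in PBS and 114 ± 17.6 in 65–79*PE of the same set, against 228 ± 21.6 in 65–79*SE replicates 1–3. Ciita and Irf1 of these libraries also lay at the PBS level. Each result in the IFNγ table is therefore given with these libraries (replicates 4–6) and without them (replicates 1–3). In these bulk libraries fewer cells making a transcript and less transcript per cell cannot be told apart.

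Arginine is the shared substrate of 2 competing enzymes in macrophages. Inducible nitric oxide synthase (Nos2) turns arginine into nitric oxide and citrulline, using the cofactor tetrahydrobiopterin, whose synthesis is started by GTP cyclohydrolase 1 (Gch1). The arginases Arg1, in the cytosol, and Arg2, in mitochondria, turn arginine into urea and ornithine, and ornithine decarboxylase (Odc1) commits ornithine to polyamines. Argininosuccinate synthase (Ass1) and argininosuccinate lyase (Asl) rebuild arginine from citrulline, and the transporters Slc7a1 and Slc7a2 bring arginine into the cell. Nos2 is the textbook marker of IFNγ-type (M1) activation and Arg1 that of Il-4-type (M2) activation in mice.

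The genes lie on GRCm38 (GENCODE M21) at chr11:78920787-78960254 (Nos2), chr10:24915221-24927484 (Arg1), chr12:79130777-79156301 (Arg2), chr2:31470207-31520672 (Ass1), chr5:130011258-130029247 (Asl), chr5:148327410-148399904 (Slc7a1), chr8:40862396-40922308 (Slc7a2), chr12:17544794-17551505 (Odc1) and chr14:47153895-47189413 (Gch1). All are protein-coding. On the opposite strand Vti1b and the antisense transcript Gm48780 reach into Arg2 exons, and the lincRNA Gm26584 reaches into exons of Slc7a2. The strand option of the counting was not given in the sources used here, so reads from these pairs cannot be told apart. Promoters in a RefSeq table (GRCm38.p6) matched 4 members, Ass1, Slc7a1, Odc1 and Gch1. Those of the 3 that rose with 65–79*SE and IFNγ in replicates 1–3 are printed up to the first annotated base of the gene, on the gene's strand, with motif matches in capitals.
Ass1, chr2:31470020-31470206, plus strand: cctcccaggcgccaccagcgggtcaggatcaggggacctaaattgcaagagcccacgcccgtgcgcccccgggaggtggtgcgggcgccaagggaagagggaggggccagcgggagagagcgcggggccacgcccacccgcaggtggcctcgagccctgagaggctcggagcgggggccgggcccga
Odc1, chr12:17544623-17544793, plus strand: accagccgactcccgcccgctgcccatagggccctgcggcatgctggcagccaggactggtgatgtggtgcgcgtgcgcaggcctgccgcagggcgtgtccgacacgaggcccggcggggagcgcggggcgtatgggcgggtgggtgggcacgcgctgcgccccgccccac
Gch1, chr14:47189414-47189663, minus strand: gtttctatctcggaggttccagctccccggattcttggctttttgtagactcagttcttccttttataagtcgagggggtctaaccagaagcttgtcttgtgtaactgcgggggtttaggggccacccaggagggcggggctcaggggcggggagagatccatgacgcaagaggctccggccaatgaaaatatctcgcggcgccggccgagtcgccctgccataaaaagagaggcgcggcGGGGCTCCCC
Searched on both strands were the GAS motif (TTCNNNGAA), the STAT6 motif (TTCNNNNGAA), the ISRE core (GAAANNGAAA), the E-box CACGTG and the NF-κB consensus. The only match in these 3 windows was an NF-κB consensus at bases -10 to -1 before the Gch1 start, the stretch in capitals. Of 32851 promoters, 7.25% held that motif in a window of 250 bases, and 7.02% held the GAS motif, 5.85% the STAT6 motif, 2.98% the ISRE core and 6.02% the E-box. A second RefSeq start of Slc7a1, inside the gene, held 1 GAS match at -146 to -138. A match is a run of letters, not a shown binding site.

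The first comparison asked what 65–79*SE with IFNγ changed against PBS. In replicates 1–3, nitric oxide synthase, the citrulline-recycling enzyme Ass1, Odc1, Gch1 and the inducible transporter Slc7a2 were higher, and Arg2 was lower. Of the 8 members tested, 6 were called (adjusted p under 0.05 and a fold over 1.5, edgeR quasi-likelihood test), where 22.8% of all genes tested were called (12.6% higher and 10.2% lower). Arg1 was too low to be tested, and Slc7a2 could be tested only through its 65–79*SE libraries, where it was high. In replicates 4–6 only Nos2 of 7 tested members was called, and it was lower, where 0.72% of genes were called (0.238% higher and 0.482% lower).

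Nos2 was at 5.88, 19.5 and 24.2 CPM in PBS, 329.8, 289 and 329.8 in 65–79*SE and 202, 181 and 176 in 65–79*PE of replicates 1–3. Both peptide groups with IFNγ stood far above every PBS library, and each 65–79*SE library stood above each 65–79*PE library. The log2 fold change against PBS was 4.27 ± 0.32 (SE) with 65–79*SE, or 19.3-fold (edgeR adjusted p = 8.77e-08), and 3.50 ± 0.31 with 65–79*PE, or 11.3-fold (adjusted p = 7.16e-07). Between the peptides it was 0.76 ± 0.27, or 1.69-fold, with a 95% interval of 0.19 to 1.34 that excludes 0, but the edgeR adjusted p was 0.0537, so it was not called. Without replicate 1 of every group it was 0.80 and called (edgeR adjusted p = 0.000104). With no filter on low counts it was called at the same 0.76 (edgeR adjusted p = 1.05e-25). Only the p-value moved there, for a cause that was not tested, and the share of all genes called was not computed.

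Nos2 of replicates 4–6 was at 4.58, 7.16 and 22.8 CPM in PBS, 2.82, 1.80 and 1.41 in the libraries labelled 65–79*SE and 71.6, 66.4 and 69.9 in 65–79*PE. The libraries labelled 65–79*SE were below all PBS libraries, while 65–79*PE was again well above them. 65–79*PE rose 5.98-fold (log2 2.58 ± 0.43, edgeR adjusted p = 0.000855). The libraries labelled 65–79*SE were 5.86-fold lower than PBS (log2 -2.55 ± 0.55, edgeR adjusted p = 0.0481), and this call was lost without replicate 5 of every group (log2 -2.73, adjusted p = 0.248) or without replicate 6 (log2 -1.28, adjusted p = 0.102). PBS replicate 6, at 22.8 CPM, lay furthest from the other PBS libraries of its set. Against 65–79*PE they were 35.3-fold lower (log2 -5.14 ± 0.54, edgeR adjusted p = 2.24e-05).

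Ass1, which joins citrulline and aspartate, was high in the same groups as Nos2. In replicates 1–3 it was at 16.5, 22.3 and 18.1 CPM in PBS, 194, 179 and 193 in 65–79*SE and 104, 98.0 and 99.0 in 65–79*PE. The 3 groups were fully apart, with 65–79*SE highest. Ass1 rose 9.99-fold with 65–79*SE (log2 3.32 ± 0.09, edgeR adjusted p = 3.64e-12) and 5.28-fold with 65–79*PE (2.40 ± 0.09, adjusted p = 9.80e-11), and was 1.88-fold higher with 65–79*SE than with 65–79*PE (0.91 ± 0.08, adjusted p = 6.22e-06). Ass1 of replicates 4–6 was at 7.17, 8.23 and 7.54 CPM in PBS, 6.34, 8.71 and 6.35 in the libraries labelled 65–79*SE and 56.5, 54.3 and 54.1 in 65–79*PE. There the libraries labelled 65–79*SE overlapped PBS (log2 -0.11, 95% interval -0.36 to 0.15) and 65–79*PE rose 7.21-fold (2.85 ± 0.11, edgeR adjusted p = 3.31e-09). Asl, the next enzyme of the cycle, was between 44.6 and 58.2 CPM in the 9 libraries of replicates 1–3 with overlapping groups, and between 25.2 and 35.0 CPM in replicates 4–6, where no comparison passed a fold of 1.5.

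**Figure D1:**
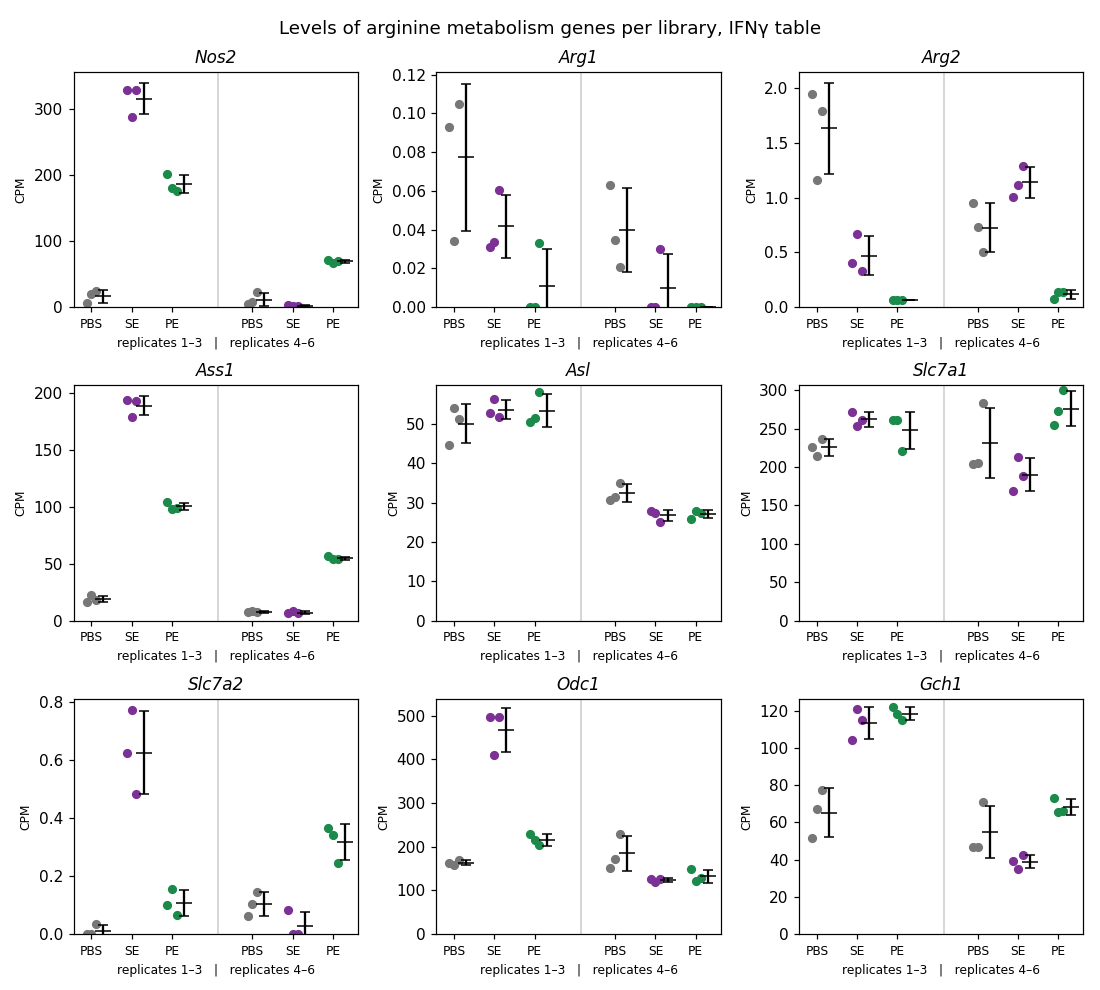
CPM of each member in every library of the IFNγ table, on linear axes from 0, with PBS in grey, 65–79*SE in purple and 65–79*PE in green, and the mean and SD of 3 libraries beside each group. Nos2 and Ass1 stand high in both peptide groups of replicates 1–3 but only in 65–79*PE in replicates 4–6, where the libraries labelled 65–79*SE hold 1.41 to 2.82 CPM of Nos2.

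Of the arginases, Arg1 was near absent from the IFNγ table. It had 0 to 4 counts in each of the 18 libraries, against 3 counts as the limit that a count of 0 allows. The ratio of summed counts to PBS with 65–79*PE was 0.14 (exact binomial 95% interval 0.0031 to 1.09) in replicates 1–3 and 0 (0 to 1.11) in replicates 4–6. In the libraries labelled 65–79*SE it was 0.542 (0.116 to 2.13) and 0.3 (0.00652 to 2.47). All these intervals include an equal level, and they cover counting error only. Arg2 was the arginase present, at low level. In replicates 1–3 it was at 1.95, 1.16 and 1.79 CPM in PBS, 0.405, 0.670 and 0.332 in 65–79*SE and 0.0676, 0.0621 and 0.0658 in 65–79*PE, where each library held only 2 counts. The groups did not overlap, with PBS highest and 65–79*PE lowest. Arg2 fell with 65–79*SE (log2 -1.81 ± 0.31, edgeR adjusted p = 0.000274) and with 65–79*PE (-4.57 ± 0.44, adjusted p = 1.74e-06), and was 6.77-fold higher with 65–79*SE than with 65–79*PE (2.76 ± 0.52, adjusted p = 0.00192).

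Arg2 of replicates 4–6 was at 0.95, 0.729 and 0.500 CPM in PBS, 1.01, 1.12 and 1.29 in the libraries labelled 65–79*SE and 0.0732, 0.142 and 0.134 in 65–79*PE. 65–79*PE was again lowest, while the libraries labelled 65–79*SE lay just above PBS, a difference that was not called (log2 0.64, 95% interval -0.03 to 1.32). Arg2 fell with 65–79*PE (log2 -2.57 ± 0.41, edgeR adjusted p = 0.000628). The libraries labelled 65–79*SE were 9.25-fold above 65–79*PE (3.21 ± 0.41, adjusted p = 9.55e-05). Arg2 was the one member for which this comparison was called in the same direction in both replicate sets. In replicates 4–6, though, the libraries labelled 65–79*SE lacked the IFNγ response present in 65–79*PE (Gbp2 at 0.713 and 114 CPM). The Arg2 difference of that set therefore holds the IFNγ response and any peptide effect together, and a peptide effect alone was not tested there. Each 65–79*PE library of that set held only 2 to 6 counts of Arg2.

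Odc1 separated the peptides in replicates 1–3. It was at 163, 159 and 169.9 CPM in PBS, 498, 409 and 496 in 65–79*SE and 230.1, 216 and 203 in 65–79*PE. All 65–79*SE libraries stood well above both other groups. Odc1 rose 2.85-fold with 65–79*SE against PBS (log2 1.51 ± 0.08, edgeR adjusted p = 1.95e-09) and was 2.16-fold above 65–79*PE (1.11 ± 0.08, adjusted p = 6.75e-07), while the 1.32-fold difference of 65–79*PE from PBS was under the fold threshold. Odc1 of replicates 4–6 was at 152, 172 and 230.3 CPM in PBS, 126, 119.9 and 126 in the libraries labelled 65–79*SE and 149, 121 and 128 in 65–79*PE, and no comparison of Odc1 was called. Without replicate 4 of every group it was called lower than PBS in both (log2 -0.71 and -0.69, edgeR adjusted p = 0.0331 and 0.00575).

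Gch1 did not separate the peptides in replicates 1–3. It was at 51.4, 67.2 and 77.3 CPM in PBS, 104, 121 and 115 in 65–79*SE and 122, 118 and 115 in 65–79*PE. Both peptide groups lay above PBS and overlapped each other. Gch1 rose 1.74-fold with 65–79*SE (log2 0.80 ± 0.11, edgeR adjusted p = 4.10e-05) and 1.82-fold with 65–79*PE (0.86 ± 0.11, adjusted p = 2.82e-05), and the 95% interval of the log2 difference between them was -0.29 to 0.18. The libraries labelled 65–79*SE of replicates 4–6, at 39.4, 35.2 and 42.3 CPM, lay below all libraries of PBS (46.6, 46.9 and 71.2) and of 65–79*PE (73.0, 65.5 and 66.1). Only the difference from 65–79*PE was called (log2 -0.80 ± 0.14, edgeR adjusted p = 0.00121).

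The transporters behaved unequally. Slc7a1, the constitutive arginine transporter, was high throughout the IFNγ table at 169 to 299.9 CPM, and no comparison of it passed a fold of 1.5. Without replicate 5 of every group it was called lower in the libraries labelled 65–79*SE of replicates 4–6 than in 65–79*PE (log2 -0.63, edgeR adjusted p = 0.0313). Slc7a2, the inducible one, stayed under 1 CPM. Its replicates 1–3 had 0, 0 and 1 counts in PBS, 20, 23 and 16 in 65–79*SE and 3, 5 and 2 in 65–79*PE. Every 65–79*SE library was above every library of the other groups. The ratio of summed counts to PBS was 55.9 (exact binomial 95% interval 9.66 to 2246) with 65–79*SE and 9.77 (1.39 to 424) with 65–79*PE, and these intervals cover counting error only. Slc7a2 was called in both (edgeR adjusted p = 2.24e-05 and 0.0273), the second lost without replicate 1 (adjusted p = 0.152) or 2 (0.201) of every group and in DESeq2 (0.0548). It was 5.58-fold higher with 65–79*SE than with 65–79*PE (log2 2.48 ± 0.46, edgeR adjusted p = 0.00178). Slc7a2 passed the filter on low counts in this set only through its 65–79*SE libraries, where it was high. Its calls here are therefore not independent of that filter. Slc7a2 of replicates 4–6 did not pass the filter on low counts, with 4, 3 and 7 counts in PBS, 2, 0 and 0 in the libraries labelled 65–79*SE and 10, 12 and 11 in 65–79*PE.

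Counted over the comparison of 65–79*PE with PBS, 5 of 8 tested members were called in replicates 1–3, where 19.8% of all genes were called (10.3% higher and 9.54% lower), and 3 of 7 in replicates 4–6, where 10.8% were (6.16% higher and 4.66% lower). Nos2 and Ass1 were higher and Arg2 lower in both sets. Between the peptides, 4 of 8 were called in replicates 1–3 (Arg2, Ass1, Slc7a2 and Odc1, all higher with 65–79*SE), where 6.08% of genes were called (4.48% higher and 1.60% lower). Slc7a2 is counted in replicates 1–3 here and against PBS, although it passed the filter on low counts only through 65–79*SE. In replicates 4–6, 4 of 7 were called, where 13.8% of genes were called (5.91% higher and 7.90% lower), and of these Nos2, Ass1 and Gch1 were lower and Arg2 higher in the libraries labelled 65–79*SE. The median log2 change of the tested members between the peptides was 0.84 in replicates 1–3 and -0.54 in replicates 4–6, beside -0.01 and 0.01 over all genes tested. The comparisons against PBS share their PBS libraries.

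The difference between the replicate sets was itself tested in the 18 libraries of the IFNγ table. For 65–79*SE against PBS it passed an adjusted p of 0.05 in all 8 members tested, where 35.7% of genes passed, and was largest, among members above the floor in every group, for Nos2 (log2 -6.80 ± 0.69, edgeR adjusted p = 2.38e-07, replicates 4–6 minus 1–3) and Ass1 (-3.40 ± 0.16, adjusted p = 6.32e-12). The smallest of these, Asl and Slc7a1, were lost without replicate 1 of every group (edgeR adjusted p = 0.0751 and 0.0837), Asl also without replicate 6 (0.0689) and Slc7a1 without replicate 2 (0.0651). For 65–79*PE against PBS only Ass1 (0.49 ± 0.14, adjusted p = 0.0335) and Odc1 (-0.84 ± 0.17, adjusted p = 0.00347) passed, where 11.5% of genes passed. Without replicate 4 of every group Arg2 passed as well (2.45, edgeR adjusted p = 0.0495), and Ass1 no longer passed without replicate 2, 3, 4 or 6 (adjusted p = 0.0987 to 0.172). For 65–79*SE against 65–79*PE 6 of 8 passed, where 28.8% of genes passed. Slc7a2 is 1 of these 6, and it passed the filter on low counts through its 65–79*SE libraries of replicates 1–3. Neither Arg2 (0.44 ± 0.85, adjusted p = 0.755) nor Asl passed there. Rn7s1, a small cytoplasmic RNA, took 5.59 to 7.54% of the counts in replicates 4–6 of the IFNγ table and at most 0.000791% in replicates 1–3. Its part in these differences was not tested.

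**Figure D2:**
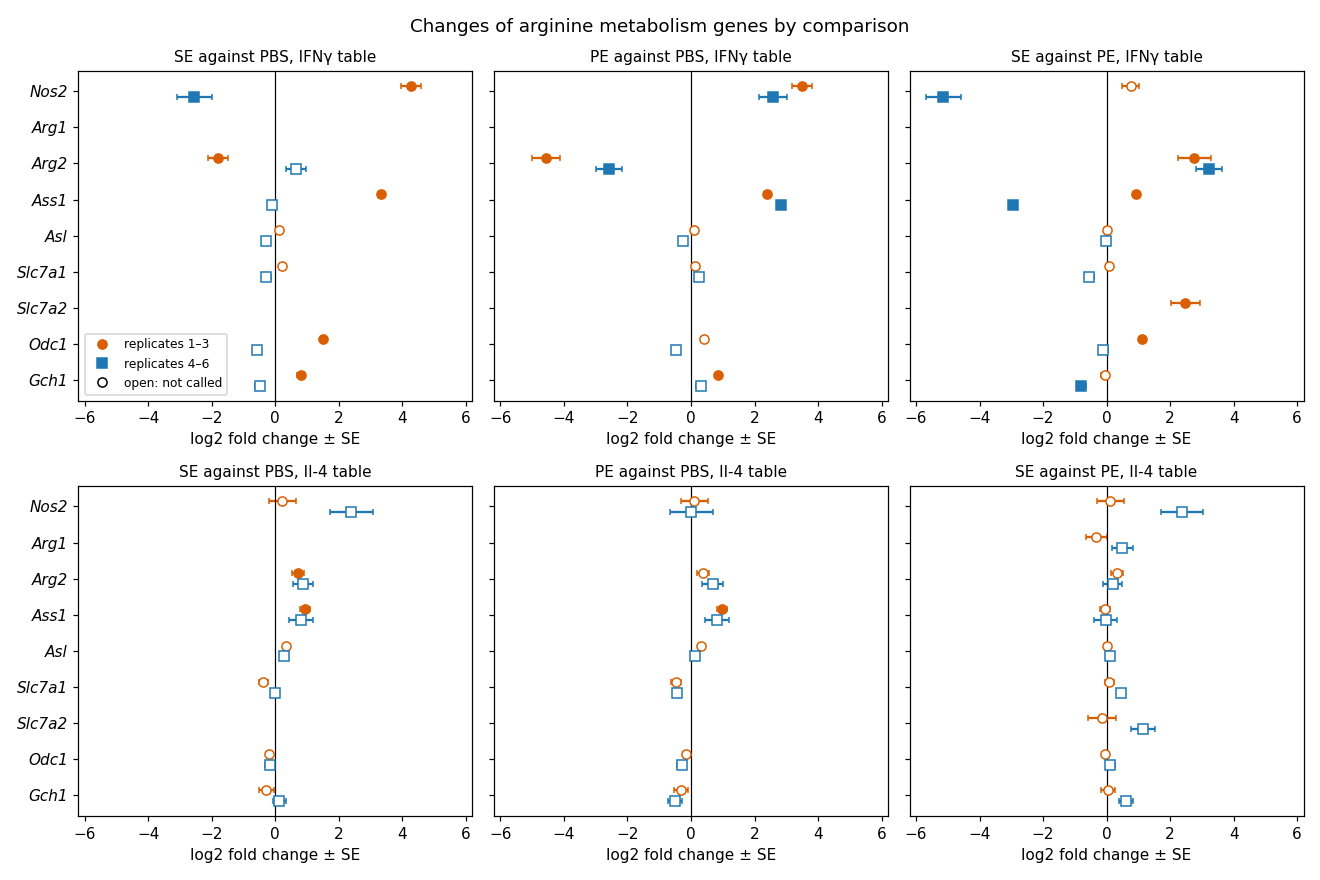
Log2 fold changes with their SE for each member, in replicates 1–3 (orange circles) and 4–6 (blue squares), with filled symbols for called changes. Arg1 and Slc7a2 against PBS are not drawn, because PBS held 0 to 14 counts in all, and a gene that did not pass the filter has no symbol. For 65–79*SE in the IFNγ table the symbols of Nos2 and Ass1 part by replicate set, and in the Il-4 table Nos2 with 65–79*SE against PBS lies at 0.22 in replicates 1–3 and 2.39 in replicates 4–6.

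Under Il-4 the arginase side of the pathway moved instead. Arg1 and the transporter Slc7a2 went from none or nearly none in PBS to several CPM with either peptide, in both replicate sets, and Ass1 was higher in replicates 1–3. Of 9 members tested against PBS in replicates 1–3, 4 were called with 65–79*SE (Arg1, Arg2, Ass1 and Slc7a2), where 6.44% of genes were called (3.07% higher and 3.37% lower), and 3 with 65–79*PE (Arg1, Ass1 and Slc7a2), where 3.95% were (2.31% higher and 1.64% lower). In replicates 4–6 Arg1 and Slc7a2 were called with each peptide, 2 of 9, where 1.05% (0.779% higher and 0.267% lower) and 2.24% (1.06% higher and 1.18% lower) of genes were called. In both sets Arg1 and Slc7a2 passed the filter on low counts only through the peptide libraries, where they were high. The counts of members called include them and are therefore not independent of that filter. Mrc1 and Mgl2, lectin receptors induced by Il-4, also rose with both peptides in both sets, while Chil3 and Retnla, other usual Il-4 genes of mouse macrophages, had at most 1 count in any library of the Il-4 table.

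Arg1 had 0, 0 and 1 counts in PBS of replicates 1–3, 219, 101 and 131 in 65–79*SE and 302, 125 and 139 in 65–79*PE. As CPM the 65–79*SE libraries were at 8.35, 4.45 and 5.48 and the 65–79*PE libraries at 11.5, 5.43 and 5.87. The peptide groups overlapped each other and were far above PBS. The ratio of summed counts to PBS was 489 (exact binomial 95% interval 87.3 to 19357) with 65–79*SE and 613 (109.6 to 24261) with 65–79*PE, and edgeR gave adjusted p-values of 8.69e-05 and 5.52e-05. PBS of replicates 4–6 had 0, 3 and 0 counts, 65–79*SE 206, 160 and 129 (9.28, 5.92 and 6.47 CPM) and 65–79*PE 214, 138 and 62 (7.34, 4.39 and 3.57 CPM). The ratios were 139 (47.3 to 676) and 103 (35.0 to 502), with edgeR adjusted p = 0.000418 and 0.000895, and without replicate 5 of every group, which holds the only PBS counts, neither was called (adjusted p = 0.0534 and 0.0765).

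Slc7a2 had 0 counts in all 6 PBS libraries. In replicates 1–3 it was at 6.82, 3.48 and 4.86 CPM in 65–79*SE and at 10.2, 3.04 and 3.46 in 65–79*PE, at least 135-fold and 152-fold higher than PBS when PBS is set to 3 counts over the group. The replicates 4–6 were at 22.2, 8.44 and 8.03 CPM in 65–79*SE and at 5.35, 6.33 and 5.88 in 65–79*PE, at least 247-fold and 114-fold higher. The edgeR adjusted p was 0.00184 and 0.00165 in replicates 1–3 and 0.00175 and 0.00313 in replicates 4–6. The call with 65–79*SE in replicates 1–3 was lost without replicate 3 of every group (adjusted p = 0.0566), and both calls in replicates 4–6 without replicate 5 (0.0601 and 0.139).

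Arg2 and Ass1 changed less. Arg2 was at 2.29, 2.99 and 3.06 CPM in PBS, 4.12, 4.36 and 5.11 in 65–79*SE and 3.74, 3.08 and 3.97 in 65–79*PE of replicates 1–3. The groups did not overlap, but only 65–79*SE was called (1.62-fold, log2 0.70 ± 0.19, edgeR adjusted p = 0.0293), and not without replicate 2 (adjusted p = 0.294) or 3 (0.243) of every group. Ass1 was at 7.49, 7.87 and 5.79 CPM in PBS, 11.5, 15.8 and 13.3 in 65–79*SE and 12.9, 13.2 and 15.5 in 65–79*PE. It rose 1.92-fold (log2 0.94 ± 0.16, edgeR adjusted p = 0.00651) and 1.97-fold (0.98 ± 0.16, adjusted p = 0.00629), again not without replicate 2 (adjusted p = 0.185 and 0.088) or 3 (0.165 and 0.201). Ass1 of replicates 4–6 was at 1.32, 2.50 and 3.04 CPM in PBS, 3.06, 3.07 and 5.97 in 65–79*SE and 3.09, 3.60 and 5.76 in 65–79*PE, without overlap with PBS. The log2 changes were 0.80 ± 0.38 and 0.83 ± 0.38 and were not called (edgeR adjusted p = 0.286 and 0.266). With the replicate number as a block the change with 65–79*PE was called (0.86, adjusted p = 0.0327).

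Nos2 was called by edgeR in no comparison under Il-4 with all libraries, the filter on low counts and no replicate block. Its replicates 1–3 were at 8.28, 3.88 and 2.48 CPM in PBS, 3.39, 6.12 and 7.49 in 65–79*SE and 3.44, 7.34 and 4.90 in 65–79*PE, with full overlap. Against PBS the log2 difference was 0.22 (95% interval -0.72 to 1.16) with 65–79*SE and 0.10 (-0.85 to 1.04) with 65–79*PE. Without replicate 1 of every group, which includes the highest PBS library, Nos2 was called with both peptides (log2 1.11 and 0.95, edgeR adjusted p = 0.00525 and 0.0195). PBS of replicates 4–6 was at 6.29, 6.10 and 2.34 CPM, 65–79*SE at 55.9, 11.2 and 9.78 and 65–79*PE at 6.69, 5.00 and 2.88. All 65–79*SE libraries lay above the other groups, and replicate 4 stood far above the other two. The log2 difference from PBS was 2.39 ± 0.67 and was not called (edgeR adjusted p = 0.116). DESeq2 called it (2.39, adjusted p = 0.0495), as did edgeR with no filter on low counts (2.39, adjusted p = 9.85e-06). With no filter only the p-value moved, for a cause that was not tested. Without replicate 4 of every group it was 1.32 and not called (edgeR adjusted p = 0.187). That library was also the highest of its group for Slc7a2 (22.2 CPM), Arg1 (9.28), Odc1 (208) and Gch1 (134).

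The remaining members were not called under Il-4. Asl was at 57.6 to 62.6 CPM in PBS and 68.0 to 79.5 with a peptide in replicates 1–3, without overlap, and the 1.26-fold differences had edgeR adjusted p-values of 0.0227 (65–79*SE) and 0.0324 (65–79*PE), under the fold threshold. Slc7a1 ran from 125 to 296 CPM over the table, Odc1 from 109.8 to 208 and Gch1 from 48.4 to 134. Without replicate 4 of every group the difference of Gch1 between 65–79*PE and PBS in replicates 4–6 was called (log2 -0.65, edgeR adjusted p = 0.0182).

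**Figure D3:**
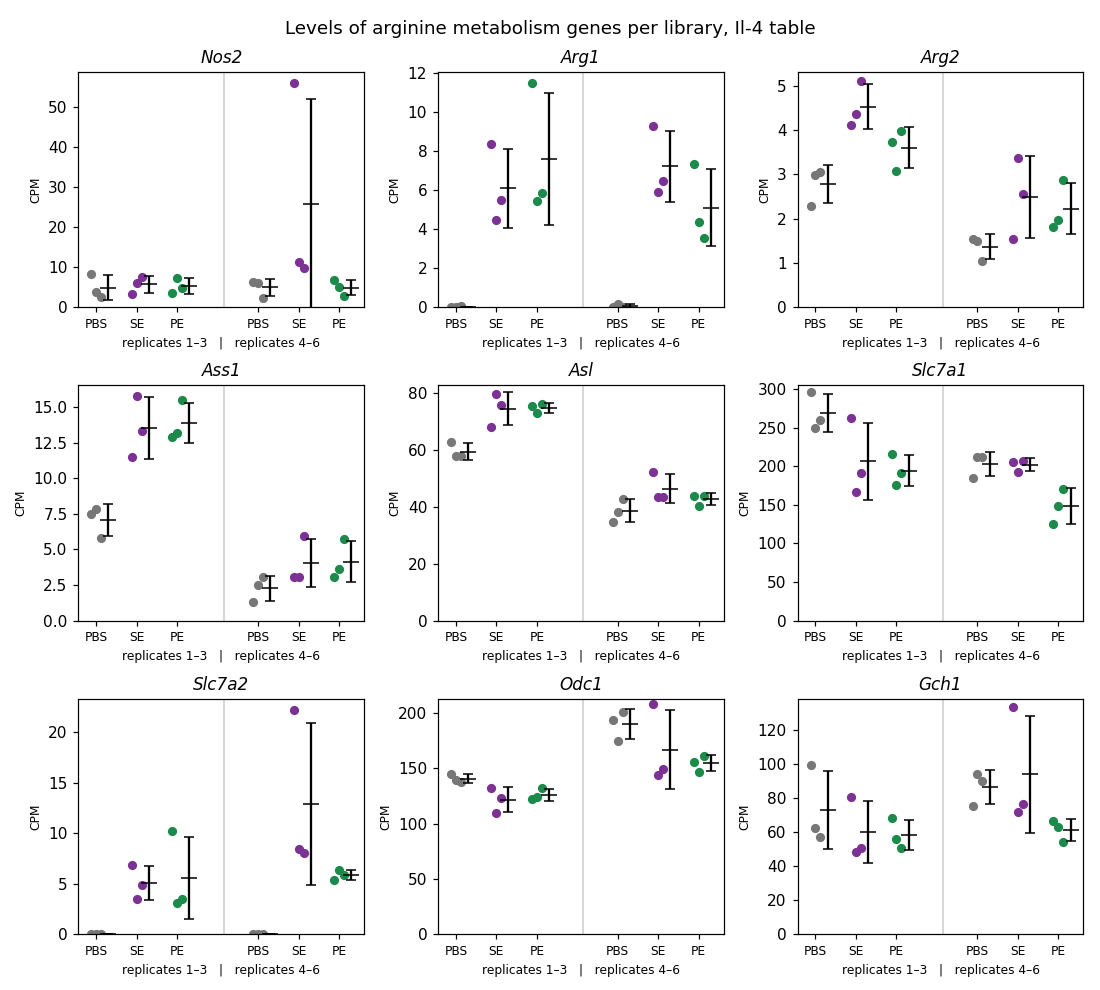
CPM of each member in every library of the Il-4 table, on linear axes from 0, with PBS in grey, 65–79*SE in purple and 65–79*PE in green, and the mean and SD of 3 libraries beside each group (bars are cut at 0). Arg1 and Slc7a2 lie at or near 0 in PBS and between 3.04 and 22.2 CPM with either peptide, and 1 library labelled 65–79*SE stands at 55.9 CPM of Nos2.

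Between the peptides under Il-4 none of the 9 members was called in either set (edgeR), and none of all genes tested was called (0% of genes). At an unadjusted p under 0.05 stood 0 members and 557 of 12350 genes in replicates 1–3, and 4 members (Nos2, Slc7a1, Slc7a2 and Gch1) and 1055 of 13472 genes in replicates 4–6, and DESeq2 called 0 members in either set. The 95% interval of the log2 difference, 65–79*SE minus 65–79*PE, was -1.02 to 0.37 for Arg1 in replicates 1–3 and -0.25 to 1.23 in replicates 4–6. A difference of about a doubling is not excluded by these fits, which took no pairing. Replicate numbers paired the peptide groups in replicates 1–3. There Arg1 was lower with 65–79*SE at each number (8.35 against 11.5, 4.45 against 5.43 and 5.48 against 5.87 CPM). In replicates 4–6 the numbers did not pair the peptide groups. There Arg1 overlapped between them, at 5.92 to 9.28 CPM with 65–79*SE and 3.57 to 7.34 CPM with 65–79*PE. The interval was -0.09 to 0.75 and -0.49 to 0.87 for Arg2, and -0.38 to 0.31 and -0.83 to 0.77 for Ass1. For Slc7a2 it was -1.16 to 0.87 in replicates 1–3 and 0.26 to 2.01 in replicates 4–6, the latter with an edgeR adjusted p of 0.597. For Nos2 it was -0.82 to 1.06 and 0.91 to 3.84, the latter with an edgeR adjusted p of 0.593. The replicate sets did not differ for any member under Il-4 in any of the 3 comparisons at an adjusted p of 0.05 (edgeR), where 4.39% (65–79*SE against PBS), 0.00705% (65–79*PE against PBS) and 0% (between the peptides) of genes did. At an unadjusted p under 0.05 stood Nos2 in the first and the last of these, and no member in the other.

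The cytokines were compared by the difference of their contrasts against PBS. In replicates 1–3 the labels give both tables the same library codes, but no library held identical counts in both, so they were taken as separate libraries. With 65–79*SE it passed an adjusted p of 0.05 in 7 of 9 members in replicates 1–3, where 33.6% of genes passed, and in 4 of 9 in replicates 4–6, where 2.57% passed. With 65–79*PE it passed in 7 and 6 of 9, where 24.4% and 13.9% passed. Arg1 passed in all 4 tests, with the rise only in the Il-4 table, but with 65–79*SE in replicates 4–6 (edgeR adjusted p = 0.0203) not without replicate 4, 5 or 6 of every group (adjusted p = 0.0851 to 0.168). Ass1 rose more with IFNγ than with Il-4 in 3 of them, and Arg2, lower with IFNγ, passed in the same 3, although Ass1 with 65–79*PE in replicates 4–6 did not pass without replicate 5 (edgeR adjusted p = 0.0845). Nos2 passed with both peptides in replicates 1–3 (log2 4.01 and 3.39) but not with 65–79*PE in replicates 4–6 (2.54, edgeR adjusted p = 0.0698). The test left out is 65–79*SE in replicates 4–6, where Nos2 passed in the other direction (log2 -4.94 ± 0.96, edgeR adjusted p = 0.0142, and 0.209 and 0.0769 without replicate 5 or 6 of every group). Its IFNγ-table libraries lacked the IFNγ response (Gbp2 at 0.713 CPM, 0.676 in PBS), so it does not compare 2 cytokine responses. Its Il-4 side holds the library at 55.9 CPM of Nos2.

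Levels between members are compared per kb of exon. In PBS of the IFNγ table, replicates 1–3, Odc1 was highest at 48.2 ± 1.60 CPM per kb, then Slc7a1 (19.6 ± 1.03), Gch1 (10.4 ± 2.09) and Asl (10.4 ± 1.02), which did not differ beyond their spread, Ass1 (7.85 ± 1.23), Nos2 (3.75 ± 2.16) and Arg2 (1.14 ± 0.294). With 65–79*SE and IFNγ, replicates 1–3, Odc1 led at 137 ± 14.9, followed by Ass1 (78.2 ± 3.61) and Nos2 (71.7 ± 5.35), whose SDs overlapped. With 65–79*PE Odc1 was at 63.5 ± 4.04, and Nos2 (42.2 ± 3.16) and Ass1 (41.5 ± 1.26) again did not differ beyond their spread. In the libraries labelled 65–79*SE, replicates 4–6, Arg2 (0.798 ± 0.0987) was above Nos2 (0.455 ± 0.165). Under Il-4 Arg1 and Arg2 lay within an SD of each other, 2.73 ± 0.906 and 3.17 ± 0.361 with 65–79*SE and 3.42 ± 1.53 and 2.52 ± 0.322 with 65–79*PE in replicates 1–3. The values of replicates 4–6 were 3.24 ± 0.809 for Arg1 and 1.74 ± 0.645 for Arg2 with 65–79*SE, a gap larger than either SD, and 2.29 ± 0.889 and 1.56 ± 0.402 with 65–79*PE, a gap within the SD of Arg1.

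**Figure D4:**
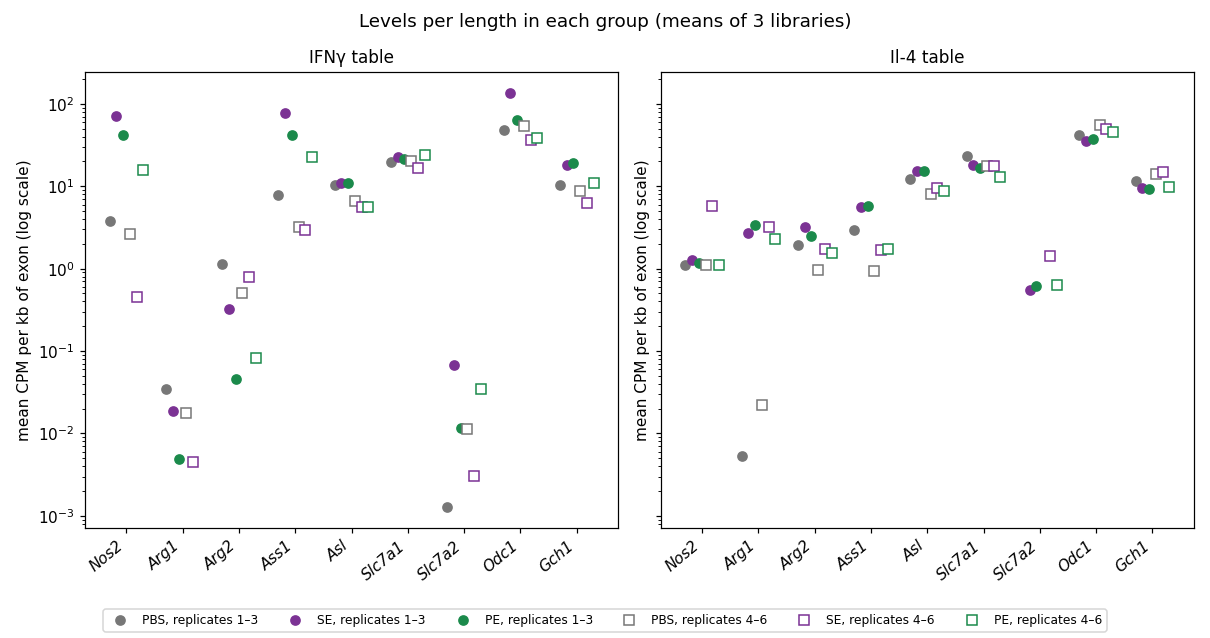
Mean CPM per kb of exon of each member in each group (3 libraries a mean), on a log axis, with filled circles for replicates 1–3 and open squares for replicates 4–6, and no symbol where all 3 libraries are at 0 (Slc7a2 in PBS of the Il-4 table and Arg1 in 65–79*PE replicates 4–6 of the IFNγ table). Odc1 and Slc7a1 vary by less than a factor of 4, while Nos2, Arg1, Arg2, Ass1 and Slc7a2 spread over more than a factor of 10.

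Set against the summed arginases per kb, Nos2 stood at 0.947 to 5.35 in the PBS libraries of replicates 1–3 in the IFNγ table, 135 to 288 with 65–79*SE and 655 to 967 with 65–79*PE. The ratio was higher with 65–79*PE although Nos2 was lower there, since Arg2 was lower still. Each of these 65–79*PE libraries held only 2 counts of Arg2 and 0 or 1 of Arg1, so the size of its ratio is uncertain. Replicates 4–6 gave 1.50 to 14.4 in PBS, 0.349 to 0.904 in the libraries labelled 65–79*SE and 151 to 317 in 65–79*PE. These 65–79*PE ratios rest on 2 to 6 counts of Arg2 and 0 of Arg1 in a library. In the Il-4 table it was 0.261 to 1.32 in PBS, 0.0999 to 0.362 with 65–79*PE and 0.116 to 0.507 with 65–79*SE apart from replicate 4, at 2.42. Arg1 made up 39.5 to 79.5% of the summed arginase level in the peptide libraries with Il-4 and at most 6.02% in PBS of that table.

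Neighbours of the pathway were followed in a list of 54 genes of arginine and polyamine transport, ornithine, creatine, proline and tetrahydrobiopterin metabolism. With 65–79*SE and IFNγ in replicates 1–3, 7 of 44 tested rose and 11 fell, beside 12.6% and 10.2% of all genes. The largest rises were in Nos1, the neuronal nitric oxide synthase (log2 2.22 ± 0.09, edgeR adjusted p = 2.69e-10), in Slc3a2 (1.56 ± 0.09, adjusted p = 3.70e-09), the heavy chain of amino acid exchangers, and in Slc7a11 (1.56 ± 0.10, adjusted p = 1.22e-08), the cystine transporter. Among those that fell were Gchfr, the feedback regulator of Gch1 (-1.18 ± 0.15, adjusted p = 1.37e-05) and Gamt of creatine synthesis (-1.05 ± 0.14, adjusted p = 3.33e-05). With 65–79*PE and IFNγ 6 of 44 rose and 7 fell in replicates 1–3, beside 10.3% and 9.54% of all genes, and 3 of 43 rose and 5 fell in replicates 4–6, beside 6.16% and 4.66%. Nos1 led the rises in both sets (2.52 ± 0.09 and 2.01 ± 0.18, adjusted p = 8.87e-11 and 7.24e-06), and Gchfr and Gamt fell in both. The median log2 change of the list against PBS was -0.05 to 0.01 in these IFNγ comparisons, beside -0.01 to 0 over all genes.

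In the libraries labelled 65–79*SE, replicates 4–6, only Pycr1 of the list was called against PBS (log2 -0.87 ± 0.14, edgeR adjusted p = 0.0246). Between the peptides 2 of 44 were higher with 65–79*SE and 1 lower in replicates 1–3, near the 4.48% and 1.60% of all genes, with Slc7a11 the most (0.86 ± 0.09, edgeR adjusted p = 2.95e-05). In replicates 4–6, 5 of 43 were higher and 7 lower, beside 5.91% and 7.90% of all genes. Under Il-4 Azin2, a regulator related to Odc1, rose with both peptides in both sets. Its replicates 1–3 averaged 1.02 ± 0.333 CPM in PBS, 6.21 ± 0.0989 in 65–79*SE and 6.76 ± 1.40 in 65–79*PE (log2 2.60 ± 0.25 and 2.73 ± 0.25, edgeR adjusted p = 0.000259 and 0.00014). In all, 4 of 43 rose and 2 fell with 65–79*SE in replicates 1–3, beside 3.07% and 3.37% of all genes, and 4 rose and 1 fell with 65–79*PE, beside 2.31% and 1.64%. Of 43 in replicates 4–6, 1 rose and 1 fell with 65–79*SE, beside 0.779% and 0.267% of all genes, and 1 rose and 2 fell with 65–79*PE, beside 1.06% and 1.18%. Between the peptides none of 43 tested was called under Il-4 (edgeR), and 4 in replicates 1–3 and 10 in replicates 4–6 had an unadjusted p under 0.05.

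The genes nearest to Nos2 in pattern over the 18 libraries of the IFNγ table, by the root mean square difference of centred log2 CPM, were Ptger2 (0.72), Ccl7 (0.78), Gstp3 (0.84), Zbp1 (0.87) and Cxcl10 (0.91), where the median over 14049 genes was 2.54. Those nearest to Arg1 over the 18 libraries of the Il-4 table were Cish (0.56), Mmp12 (0.75), Lipn (0.86), Mrc1 (0.97) and Il4i1 (1.13), with a median of 2.88 over 11879 genes. These are descriptions of likeness, with libraries shared by all genes.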

How the data were processed

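Stranded, poly(A)-selected RNA-seq libraries of RAW264.7 cells were made by the authors, sequenced as single-end reads, and counted with featureCounts on GRCm38.p5 with GENCODE annotation, uniquely aligned reads only. The aligner and strand option were not given in the sources used here. The deposited values were whole-number counts per gene, not normalized, in 2 tables of 18 libraries. Groups came from the labels. The study states 6 biological replicates from 2 independent experiments. The labels do not say which libraries belong to which experiment, or whether replicates were separate cultures, so p-values measure the spread between these libraries. If the replicate sets are those experiments, a p-value within a set covers a single experiment. No pair of libraries of a group was a duplicate (lowest chi-square per degree of freedom 5.23).

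Counts were analysed with edgeR 4.0.16 in R 4.3.3 (TMM, filterByExpr, glmQLFit, glmQLFTest) for each table and replicate set, 9 libraries and 3 groups a fit, with Benjamini-Hochberg adjustment over all genes tested. Called means an adjusted p under 0.05 and a fold over 1.5. A member near 0 in some groups, such as Arg1 or Slc7a2, passed the filter through groups where it was high. Counts of members that include it are not independent of the filter. Differences between replicate sets or cytokines were fitted on 18 libraries and called at an adjusted p under 0.05. CPM are counts per 1000000 of the TMM-scaled library, and per kb values divide them by the exon length in GENCODE M21, a later release than that used for counting, from which positions were taken by gene name. A count of 0 allows up to 3 counts, or 0.0475 to 0.173 CPM by library, and such limits cover counting error only. On simulated counts for 65–79*SE against PBS with IFNγ in replicates 1–3 (15343 genes), 81% of genes changed by 1 log2 unit and 95% of those changed by 2 were recovered, with 4 false calls. In replicates 4–6 (15563 genes) these were 69% and 96%, with 7 false calls, and for the same comparison with Il-4 76% and 92% in replicates 1–3 (12350 genes) and 69% and 93% in replicates 4–6 (13472 genes), with 10 false calls each. Each simulation changed 200 genes, as many up as down, whereas 22.8% of genes were called in the first of these comparisons. The rates are over genes of all levels and are not rates for members near 0 counts.

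The study's labels share replicate numbers. Numbers were taken to pair libraries where every pair's deviations from the group means correlated above 0.1. This held in 5 of 12 comparisons, the 3 of Il-4 in replicates 1–3, 65–79*PE against PBS with Il-4 in replicates 4–6, and the peptides with IFNγ in replicates 4–6.

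Alternatives were no filter, a stricter filter (10 counts or more in each library), RLE factors, DESeq2 1.42.0, a replicate block, dropping the fold threshold, each replicate number left out, and all 18 libraries with a term for the replicate set. Members, lists and rules were chosen with earlier results of these data known. Named genes are the members, check genes of either cytokine, up to 3 called neighbours with the largest rise and fall per comparison, and the 5 genes nearest in pattern to Nos2 and Arg1. Some genes that the rule names are not reported here.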

Additional observations from a re-analysis of the deposited data

Results flagged for a closer look

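Groups of 6 libraries were checked for 1 library that stood apart (its gap to the next over the group's range above 0.625). Each group pools replicates 1–3 with replicates 4–6, whose levels could differ widely. Nos2 with 65–79*SE and IFNγ was at 289 to 329.8 CPM in replicates 1–3 and 1.41 to 2.82 CPM in replicates 4–6. Some groups, such as those of Arg1, lay near 0 counts. The rule's chance rate of about 1 in 20 assumes 6 values of a single distribution, so it does not apply to these groups. Of 53 groups of a member that could be checked, 1 library stood apart in 5. These were Nos2 in 65–79*SE replicate 4 with Il-4 (55.9 CPM), Slc7a2 in the same library (22.2 CPM), Odc1 in PBS replicate 6 of the IFNγ table (230.3 CPM), and Arg1 at 1 to 3 counts in 65–79*PE replicate 3 of the IFNγ table (0.0329 CPM) and PBS replicate 5 of the Il-4 table (0.150 CPM).

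The response against PBS differed between the cytokines (contrast with IFNγ minus that with Il-4, edgeR adjusted p under 0.05) for these members. With 65–79*SE in replicates 1–3 the log2 difference was 4.01 for Nos2, -2.54 for Arg2, 2.34 for Ass1, 0.56 for Slc7a1, 1.69 for Odc1 and 1.04 for Gch1, and Arg1 had an adjusted p of 0.000152 with the rise in the Il-4 table. With 65–79*PE in replicates 1–3 it was 3.39 for Nos2, -4.95 for Arg2, 1.41 for Ass1, 0.59 for Slc7a1, 0.55 for Odc1 and 1.16 for Gch1, with an edgeR adjusted p of 8.78e-05 for Arg1. The libraries labelled 65–79*SE of replicates 4–6 lacked the IFNγ response in the IFNγ table. In that set the log2 difference with 65–79*SE was -4.94 for Nos2 and -0.55 for Asl, with edgeR adjusted p-values of 0.0203 for Arg1 and 0.00175 for Slc7a2. With 65–79*PE in replicates 4–6 it was -3.27 for Arg2, 2.01 for Ass1, -0.43 for Asl and 0.69 for Slc7a1, with edgeR adjusted p-values of 0.00185 for Arg1 and 0.00323 for Slc7a2. In replicates 1–3 Slc7a1 did not pass without replicate 2 or 3 of every group and Gch1 not without replicate 2, with either peptide. In replicates 4–6 no member passed with 65–79*SE without replicate 5 or 6, nor Arg1 and Asl without replicate 4, while Ass1, Asl, Slc7a1 and Slc7a2 with 65–79*PE each failed without at least 1 replicate, and Arg1 and Arg2 passed whichever replicate was left out. No fold is given for Arg1 and Slc7a2 here because PBS was at or near 0 counts in the Il-4 table.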

How the results depend on the processing

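Of 1619 recomputed member changes, 1445 (89.3%) kept their direction and their side of the threshold, 60 lost a call, 34 gained one and 80 changed sign, of which 78 were not called to begin with. Members that an alternative left untested, such as Arg1 and Slc7a2 under the stricter filter, are not among these, so calls lost that way are not counted. Dropping the fold threshold could not change a direction. The share of all genes called was computed for the edgeR fits of the Results, not for the alternatives. Counts of members called under the alternatives therefore stand without that share and cannot be set against it. RLE factors and DESeq2 kept every count of called members within 1.5 times, while DESeq2 lost Slc7a2 for 65–79*PE with IFNγ in replicates 1–3 and gained Nos2 for 65–79*SE with Il-4 in replicates 4–6. Depth limits Arg1 with IFNγ, at 0 to 4 counts a library, and Arg1 and Slc7a2 in PBS with Il-4.

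Both called changes that turned did so in the fit of all 18 IFNγ libraries with a replicate set term, which pools replicates 1–3 with the libraries labelled 65–79*SE of replicates 4–6. There Nos2 with 65–79*SE against PBS was 2.12 (from -2.55 in replicates 4–6) and Ass1 between the peptides -0.61 (from 0.91 in replicates 1–3). Among the uncalled values that turned there were, for 65–79*SE against PBS in replicates 4–6, Arg2 (-0.59), Ass1 (2.10), Odc1 (0.48) and Gch1 (0.15). Between the peptides they included Nos2 (-0.74, replicates 1–3) and Odc1 (0.62, replicates 4–6) with IFNγ, and Arg1 (0.08) and Slc7a2 (0.52) with Il-4 in replicates 1–3. Members called in that fit were 1 for 65–79*SE with IFNγ (6 in replicates 1–3), 3 for 65–79*PE (5), 1 between the peptides (4 in either set) and 4 for 65–79*SE with Il-4 (2 in replicates 4–6).

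At least 10 counts in every library removes Arg1 and Slc7a2, and Arg2 wherever IFNγ libraries enter. It left 3 called for 65–79*PE and 2 between the peptides with IFNγ in replicates 1–3, under Il-4 2 (65–79*SE) and 1 (65–79*PE) in replicates 1–3 and 0 for each in replicates 4–6, and 2 and 3 differences between cytokines in replicates 4–6. No filter called 2 members, Nos2 and Slc7a2, between the peptides with Il-4 in replicates 4–6, where DESeq2 called 0, and also Nos2 between the peptides with IFNγ in replicates 1–3 and for 65–79*SE with Il-4 in replicates 4–6, and no fold threshold called 5 for 65–79*PE with IFNγ in replicates 4–6. The cause of these gains was not tested.

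With the replicate block, Slc7a1 became the 1 member differing between replicate sets for 65–79*SE with Il-4, Nos2 with 65–79*SE and Il-4 in replicates 4–6 was called (2.10, edgeR adjusted p = 0.0302), and Nos2 with 65–79*PE and Il-4 in replicates 4–6 was -0.02 (-0.01 in DESeq2). Where the numbers pair libraries, the block changed no other call within a replicate set than the Ass1 one given above. In the differences between cytokines in replicates 4–6 it added Nos2 (2.80, edgeR adjusted p = 0.0136) and Gch1 (0.83, adjusted p = 0.0369) with 65–79*PE and Ass1 (-0.92, adjusted p = 0.0264) with 65–79*SE.

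Leaving out 1 replicate number moved the called members with Il-4 between 1 and 5 (65–79*SE, replicates 1–3), 0 and 2 (65–79*SE, replicates 4–6) and 0 and 3 (65–79*PE, replicates 4–6), and with IFNγ between 0 and 2 (65–79*SE, replicates 4–6). It moved members differing between replicate sets (65–79*PE, IFNγ) between 1 and 2, and between cytokines in replicates 4–6 between 0 and 2 (65–79*SE) and 2 and 5 (65–79*PE). Among the uncalled changes that turned with Il-4 were those of Nos2 against PBS (-0.36 to 1.11 with 65–79*SE and -0.36 to 0.95 with 65–79*PE in replicates 1–3, -0.07 to 0.18 with 65–79*PE in replicates 4–6). Between the peptides with Il-4 they included Nos2 (-0.18 to 0.39), Ass1 (-0.19 to 0.06) and Slc7a2 (-0.37 to 0.36) in replicates 1–3 and Arg2 (-0.19 to 0.38) and Ass1 (-0.12 to 0.04) in replicates 4–6, and with IFNγ Gch1 (-0.11 to 0.03, replicates 1–3).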
